A study of Mus musculus with 8 samples.

Results

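Platelets and their parent cells, the megakaryocytes, are marked by the transcripts of a set of 8 genes: Pf4, Ppbp, Clec1b, Itga2b, Itgb3, Gp9, Gp1bb and Treml1. These are 8 of the 19057 genes named on the array, and all 11 of their probes, found by gene symbol, were taken as a sign of platelets among sorted cells. RNA came from kidney cells of adult C57B6/CD1 mice that had been bound by magnetic beads to the surface protein CD31, and 1 single-colour Illumina array was run for each of 8 samples. The groups were mutant females (numbers 1 and 3) and mutant males (2 and 4), homozygous for the Crim1 gene-trap allele KST264, set against females (1 and 3) and males (2 and 4) of wildtype genotype. The trap is a germline allele, so cells other than endothelium carry it too. Separate animals for separate arrays are not stated in the labels, which speak of pairs of mice, and each p-value therefore reflects the spread among these 8 samples alone, part of which may be technical.

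Platelets are small cell fragments without a nucleus that bud from megakaryocytes and keep some of their messenger RNA. They bear CD31 as endothelial cells do, so a CD31 sort can hold platelets, loose or stuck to other cells. Their granules release chemokines such as Pf4 and Ppbp, while surface receptors of the C-type lectin, integrin and GPIb-IX-V families bind podoplanin, fibrinogen and von Willebrand factor and start clotting. The arrays measured the summed RNA of the sorted cells, in which fewer cells of a type and less RNA per cell cannot be told apart.

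The sequences before the start of Pf4 and Clec1b are shown because these were the members whose arrays separated in opposite directions in males and females, and that of Ppbp because it lies beside Pf4 on chromosome 5, with 3917 bases between the starts of their windows. Each is the 250 bases before the gene start on the plus strand of GRCm38.p6, from RefSeq (chr5:90772185-90772434, chr5:90768268-90768517 and chr6:129397047-129397296). Capitals mark the letters GATAA of a GATA factor motif, read on the other strand as TTATC, and the letters GGAAG of an ETS factor motif, read on the other strand as CTTCC.
Pf4: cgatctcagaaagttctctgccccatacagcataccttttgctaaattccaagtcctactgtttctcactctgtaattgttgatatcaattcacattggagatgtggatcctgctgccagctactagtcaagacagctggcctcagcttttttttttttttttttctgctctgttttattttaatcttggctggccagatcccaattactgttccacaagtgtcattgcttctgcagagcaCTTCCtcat
Ppbp: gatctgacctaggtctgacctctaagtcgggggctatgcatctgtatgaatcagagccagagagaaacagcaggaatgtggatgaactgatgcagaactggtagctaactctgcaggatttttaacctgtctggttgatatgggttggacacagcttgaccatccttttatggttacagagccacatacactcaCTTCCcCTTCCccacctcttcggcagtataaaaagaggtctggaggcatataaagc
Clec1b: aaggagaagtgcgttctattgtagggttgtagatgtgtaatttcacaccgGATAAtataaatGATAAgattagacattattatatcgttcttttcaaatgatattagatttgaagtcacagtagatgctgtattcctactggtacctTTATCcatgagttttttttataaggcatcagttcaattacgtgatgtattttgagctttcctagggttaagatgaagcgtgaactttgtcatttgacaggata
The Pf4 window held 1 CTTCC and the Ppbp window held 2, while the Clec1b window held GATAA at 2 places and TTATC at 1. Of the 8 members, 7 had a window in the RefSeq table; Itgb3 had none there. GATAA on either strand lay in 2 of these 7 windows, against 22.6% of 32851 mouse promoter windows of the same length, and GGAAG lay in 6 of 7, against 64.1%. One member window, that of Gp9, held both motifs, against 13.2% of all windows, and no GATAA overlapped a GGAAG. These matches describe letters in the windows, not bound sites.

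Transcripts of the member genes, Gp1bb aside, were measurable but mostly dim. A probe was called detected on an array when its detection p was under 0.05. Of 88 combinations of member probe and array, 65 were detected, and 55 had a detection p under 0.01. Among all probes, 45.1% to 48.7% were detected on an array. Each array detected 7 to 9 of the 11 probes: 9 on both mutant females, 8 on both mutant males, 8 and 7 on wildtype females 1 and 3, and 8 on both wildtype males. On all 8 arrays 5 probes were detected: the single probes of Pf4 and Gp9, both probes of Ppbp and the probe ILMN_2911123 of Itga2b. The probe of Gp1bb, the beta chain of glycoprotein Ib, was detected on no array (ILMN_2653205, raw signal 60.1 to 75.9 in mutants and 55.9 to 79.9 in wildtype), and neither was the second Clec1b probe (ILMN_2605372, 71.6 to 83.6 in mutants and 67.6 to 80.4 in wildtype). A probe detected on at least 2 arrays was tested, which left 9 member probes of 7 genes.

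**Figure D1:**
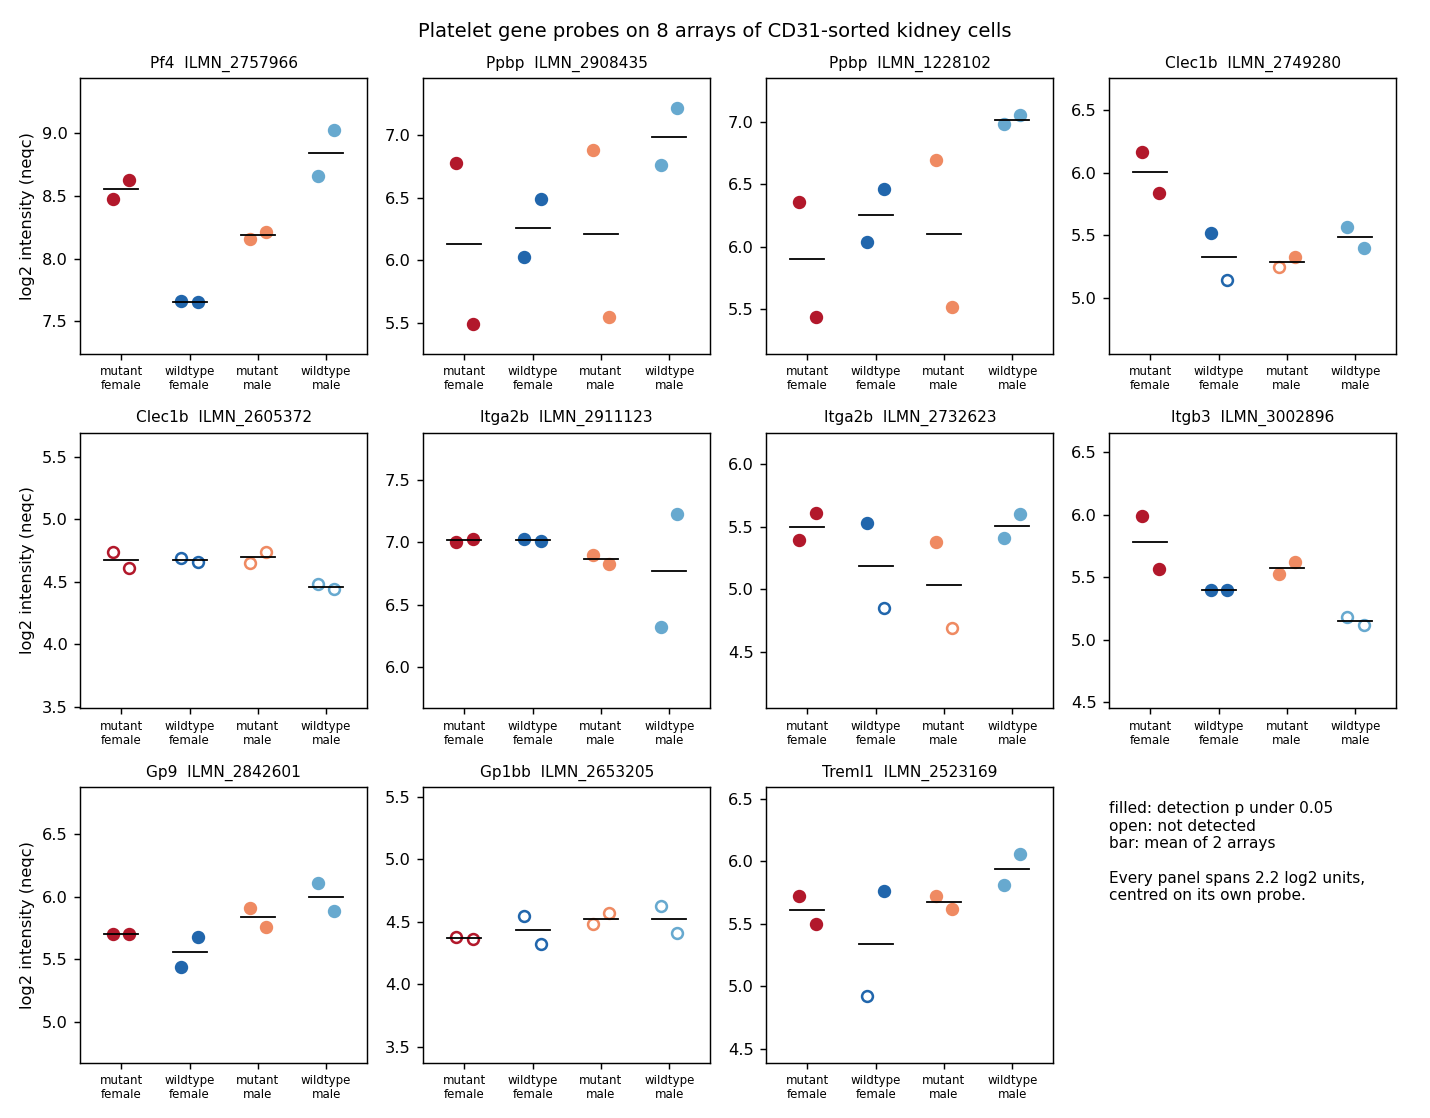
Log2 intensity after background correction and quantile normalization of each of the 11 member probes (vertical axis) on the 2 arrays of each group (horizontal axis). Filled points were detected, open points were not, and bars are means of 2 arrays. Pf4 stands higher in mutant than in wildtype females and lower in mutant than in wildtype males, while the Gp1bb panel has no filled point.

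The labels were checked, and endothelial markers were read, on the same arrays. Crim1 was detected by probe ILMN_2910295 on 2 of 4 mutant arrays (log2 5.82 in both mutant females) and on 4 of 4 wildtype arrays (6.97 to 7.98), and the mutant males stood at 4.67 and 4.88. Probe ILMN_2525274 gave 4.56 to 5.85 in mutants and 6.90 to 7.64 in wildtype, and ILMN_1256087 was detected on no array. The position of these probes relative to the trap was not used here. Of 14 endothelial markers 13 were tested, Kdr being detected on at most 1 array, and Pecam1, which encodes CD31, was detected on all 8. The median of the mean log2 intensities was 11.94 for the tested endothelial genes and 13.43 for 9 tested proximal tubule genes. All 8 samples were sorted, so the purity of the sort was not tested. The median raw signal of an array was 83.2 to 98.5, and 45.1% to 48.7% of probes were detected. On the second principal component, with 18.4% of the variance, the value of mutant male 2 was 53.8, and the remaining arrays ran from -39.9 to 3.47.

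Whether the amount of platelet RNA in the fraction differed with the Crim1 mutation was asked first. No member passed an adjusted p of 0.05 in the genotype comparison, in which 9 of 23841 tested probes did (0.0378%; 0 with the replicate number as a block). The median difference over the 7 tested members, mutant minus wildtype, was 0.04 on the log2 scale, and that over all tested probes was 0.01. Of the members 5 lay above 0 and 2 below, against 52.5% of all probes above 0. At an unadjusted p under 0.05 stood 1 member, Itgb3, against 8.78% of all tested probes.

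Pf4 encodes platelet factor 4 (Cxcl4), a chemokine stored in alpha granules. Its raw signal was 403.9 and 503.3 in mutant females, 278.1 and 370.6 in mutant males, 270.2 and 264.5 in wildtype females, and 507.6 and 544.4 in wildtype males. The 2 wildtype sexes lay at the ends of its range, and the mutant arrays lay between them after normalization. Log2 intensity averaged 8.37 ± 0.223 in mutants and 8.25 ± 0.705 in wildtype arrays (SD, n = 4 each). The genotype difference was 0.12 (SE 0.12, limma adjusted p = 0.880), with a 95% interval of -0.16 to 0.41. This mean hides opposite values within the sexes, which are given further on.

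Ppbp encodes pro-platelet basic protein, the precursor of the neutrophil-attracting chemokine NAP-2 and the other CXC chemokine of the alpha granule. By probe ILMN_2908435 its raw signal was 165.8 and 111.6 in mutant females, 147.5 and 110.0 in mutant males, 127.1 and 151.7 in wildtype females, and 185.6 and 201.7 in wildtype males. Replicates of the same mutant group were far apart, with mutant female 3 and mutant male 4 the lowest of all arrays. The genotype difference was -0.45 (SE 0.38, adjusted p = 0.842), with an interval of -1.35 to 0.45. It was -0.78 without mutant female 1, -0.79 without mutant male 2, -0.13 without mutant female 3 and -0.12 without mutant male 4. The other probe, ILMN_1228102, placed the same 2 arrays lowest (109.8 and 109.2) and gave -0.63 (SE 0.31, adjusted p = 0.655).

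The arrays that were low in Ppbp were also low in red cell RNA. Hba-a1, the alpha chain of haemoglobin, had log2 intensities of 14.64 and 10.82 in mutant females, 13.54 and 11.25 in mutant males, 12.56 and 12.52 in wildtype females, and 14.01 and 14.22 in wildtype males. The mean centred level of 7 tested erythroid genes was -1.45 on mutant female 3 and -1.13 on mutant male 4, and -0.29 to 1.32 on the other arrays. Of these 7 genes, 2 did not share this order: Slc4a1, an anion exchanger that kidney intercalated cells also express (11.78 and 12.38 on those arrays, 11.30 to 12.11 on the others), and the erythroid transcription factor Klf1 (6.84 and 7.16 on those arrays, 6.42 to 7.65 on the others). S100a8, a neutrophil calcium-binding protein, stood at 9.44 on mutant female 3 and at its lowest, 7.70, on mutant male 4. Pf4 did not follow: mutant female 3 had more Pf4 signal than mutant female 1, and mutant male 4 more than mutant male 2. The part of blood cell carry-over in the Ppbp values was not tested, and these genes were singled out after their values were seen.

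Clec1b encodes CLEC-2, the platelet receptor for podoplanin. Its probe ILMN_2749280 had raw signals of 129.5 and 125.3 in mutant females, 86.3 and 102.8 in mutant males, 106.6 and 95.3 in wildtype females, and 115.4 and 102.4 in wildtype males. The mutant females were the brightest arrays, and it was not detected on mutant male 2 and wildtype female 3. The genotype difference was 0.24 (SE 0.14, adjusted p = 0.730).

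Itga2b and Itgb3 encode the alpha and beta chains of the fibrinogen receptor, integrin alphaIIb-beta3. The brighter Itga2b probe, ILMN_2911123, had raw signals of 183.9 and 206.8 in mutant females, 148.4 and 179.5 in mutant males, 195.0 and 191.2 in wildtype females, and 152.8 and 202.6 in wildtype males. It was the steadiest member among females (log2 7.00 to 7.03), and its genotype difference was 0.04 (SE 0.20, adjusted p = 0.988). Leaving out wildtype male 2, its lowest array after normalization, turned this to -0.18. The dimmer probe, ILMN_2732623, detected on 6 arrays, gave -0.08 (SE 0.21, adjusted p = 0.972).

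Itgb3, which other cells also pair with the alpha-v chain, was the member with the lowest genotype p. Its raw signal was 121.4 and 114.6 in mutant females, 92.6 and 112.5 in mutant males, 102.9 and 103.5 in wildtype females, and 101.3 and 94.4 in wildtype males. After normalization every mutant array (log2 5.53 to 5.99) stood above every wildtype array (5.12 to 5.40), as 1.51% of tested probes did (2.88% were free of overlap in either direction). The difference was 0.40 (SE 0.13, unadjusted p = 0.0145, adjusted p = 0.428), and raw signals of the genotypes overlapped. It was detected on all 4 mutant arrays and on 2 of 4 wildtype arrays. Both wildtype males were below the detection limit (mean log2 5.15), so the male difference has no exact size. Against an upper bound of 5.25 for wildtype males, the mean of mutant males, 5.58, was 1.25-fold higher. That figure leaves out the spread of 2 arrays a group. The limma interval of the male difference was 0.01 to 0.84 (adjusted p = 0.435), so no least size is established.

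Gp9 and Gp1bb encode chains of the GPIb-IX-V complex, the receptor for von Willebrand factor. Gp9 (ILMN_2842601) had raw signals of 110.6 and 119.3 in mutant females, 102.8 and 117.6 in mutant males, 104.1 and 112.9 in wildtype females, and 140.0 and 119.2 in wildtype males. Mutants averaged log2 5.77 ± 0.0980 and wildtype arrays 5.78 ± 0.284 (SD, n = 4 each), a difference of -0.01 (SE 0.12, adjusted p = 0.995). Treml1 encodes TLT-1, a receptor held in alpha granules. Its signal (ILMN_2523169) was 111.1 and 111.8 in mutant females, 97.7 and 112.5 in mutant males, 88.6 and 115.7 in wildtype females, and 125.4 and 125.9 in wildtype males. Both genotypes averaged log2 5.64, with an SD of 0.108 in mutants and 0.498 in wildtype arrays (n = 4 each). The difference was 0.00 (SE 0.20, adjusted p = 1), and wildtype female 1, the lowest array, was the only one on which it was not detected.

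Between the sexes no member passed either, where 730 of 23841 probes did (3.06%; 1.32% higher and 1.74% lower in males). The median sex difference of the members, male minus female, was 0.28, and that of all tested probes was -0.02. Of the 7 members 4 lay above 0, against 46.5% of all probes. After normalization Gp9 was higher on every male array (log2 5.76 to 6.11) than on any female array (5.44 to 5.70). The difference was 0.28 (SE 0.12, unadjusted p = 0.0441, adjusted p = 0.235), and 12.6% of tested probes did not overlap between the sexes. Its raw signals did overlap, at 102.8 to 140.0 in males and 104.1 to 119.3 in females. Pf4 differed by 0.41 (SE 0.12, unadjusted p = 0.0114, adjusted p = 0.127), with overlap. At an unadjusted p under 0.05 stood these 2 members, against 20.1% of all probes.

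The genotype difference was then set side by side in males and females. Of 7 tested members 5 had a negative interaction (male minus female), against 48.1% of all tested probes, and the median was -0.53, against 0.02 for all tested probes. No member passed an adjusted p of 0.05, and neither did any of the 23841 probes (0%). At an unadjusted p under 0.05 stood 2 members, Pf4 and Clec1b, against 6.97% of all probes. Within each sex no member passed an adjusted p of 0.05 (0.00419% of all probes did in males and 0% in females). At an unadjusted p under 0.05 stood Pf4 and Itgb3 in males, against 11.2% of all probes, and Pf4 and Clec1b in females, against 4.26%.

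In males Pf4 averaged log2 8.18 in mutants and 8.84 in wildtype, a difference of -0.66 (SE 0.17, adjusted p = 0.246). In females it averaged 8.55 in mutants and 7.65 in wildtype, a difference of 0.90 (SE 0.17, adjusted p = 0.772). Neither sex's arrays overlapped between genotypes, as was so for 39.4% of tested probes in males and 32.8% in females. The interaction was -1.56 (SE 0.24, 95% interval -2.13 to -0.99), with an unadjusted p of 0.000338 that placed it ninth in rank among all probes (9 of 23841, 0.0378%) and an adjusted p of 0.594. When any single array was left out the interaction was -1.75 to -1.38.

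Clec1b showed the same arrangement with smaller values. In males it averaged 5.29 in mutants and 5.48 in wildtype, a difference of -0.20 (SE 0.20, adjusted p = 0.789). In females it averaged 6.01 in mutants and 5.33 in wildtype, a difference of 0.68 (SE 0.20, adjusted p = 1). The interaction was -0.87 (SE 0.28, unadjusted p = 0.0164, adjusted p = 0.656). Clec1b was not detected on mutant male 2 and wildtype female 3, so these differences have no exact size. Both mutant females lay above both wildtype females and both mutant males below both wildtype males for these 2 of 7 members, an arrangement found in 594 of 23841 probes (2.49%). For Clec1b it held after normalization only: the raw signal was 102.8 on mutant male 4 and 102.4 on wildtype male 4.

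The other members did not share that arrangement. Ppbp differed by -0.78 in males and -0.13 in females (interaction -0.65, SE 0.76, adjusted p = 0.918). Itgb3 differed by 0.38 in females (SE 0.18, adjusted p = 1). In males, whose wildtype arrays were both below the detection limit, its difference has no exact size, so the sexes cannot be compared by size. Treml1 differed by -0.26 in males and 0.27 in females (interaction -0.53, SE 0.39, adjusted p = 0.837), and Gp9 by -0.16 in males and 0.14 in females (interaction -0.30, SE 0.23, adjusted p = 0.846). Itga2b gave 0.09 in males and 0.00 in females by its brighter probe, but -0.47 in males and 0.31 in females by its dimmer one, whose interaction was -0.78 (SE 0.42, adjusted p = 0.769). That dimmer probe was not detected on mutant male 4 and wildtype female 3, nor Treml1 on wildtype female 1. Differences that use those arrays have no exact size.

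**Figure D2:**
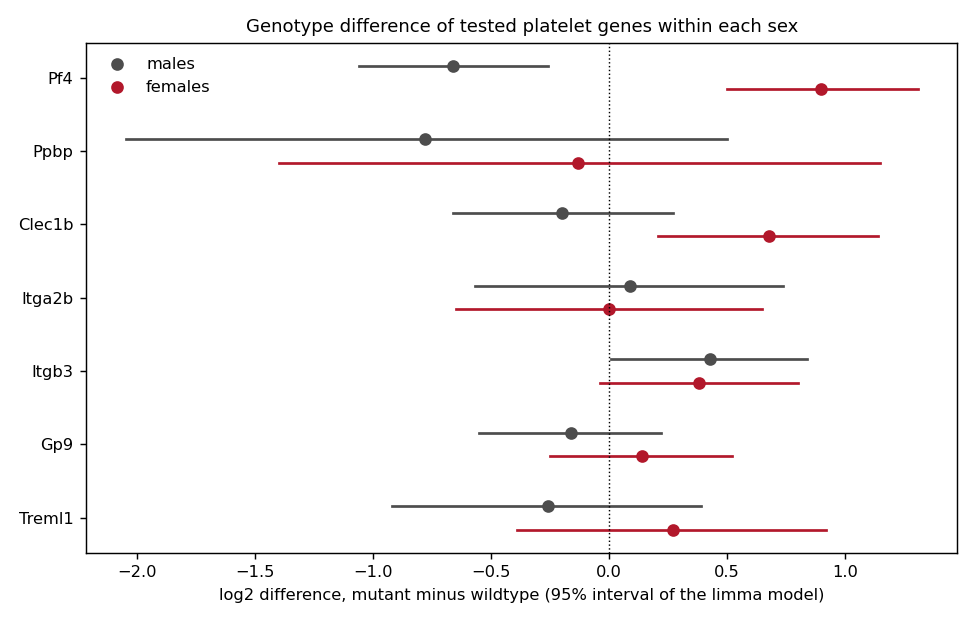
Log2 difference between mutant and wildtype arrays (horizontal axis) for each tested platelet gene (vertical axis), in males and in females. Points are differences of means of 2 arrays and bars are 95% intervals of the limma model. The Pf4 intervals lie on opposite sides of 0, at -0.66 in males and 0.90 in females, and the male point of Itgb3 was fitted against wildtype arrays that were both below the detection limit, so it has no exact size. Both points of Clec1b (mutant male 2, wildtype female 3) and the female point of Treml1 (wildtype female 1) also include undetected arrays.

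Other genes of the platelet were examined in 3 lists. None of their 28 tested genes passed the genotype comparison or the interaction. Of 15 listed surface receptors 9 were tested, with a median genotype difference of -0.06; Gp5, Gp6, F2rl2 and P2ry12, a partner of GPIb and receptors for collagen, thrombin and ADP, were detected on at most 1 array. The thrombin receptor F2rl3 (PAR4) was at -0.47 (SE 0.18, adjusted p = 0.511) and the thromboxane receptor Tbxa2r at -0.56 (SE 0.26, adjusted p = 0.633). F2rl3 was also higher in males than in females, by 0.91 (SE 0.18, adjusted p = 0.0469), a call that ended when any 1 of 7 arrays was left out (adjusted p up to 0.154) and held only without wildtype male 2 (0.0344). Of 10 signalling genes 8 were tested (median -0.01), with the 12-lipoxygenase Alox12 at -0.45 (SE 0.15, adjusted p = 0.471) and the kinase substrate Plek at -0.19 (SE 0.24, adjusted p = 0.916). Thromboxane synthase, Tbxas1, which macrophages also express, was lower in males by a log2 difference of -1.07 (SE 0.20, adjusted p = 0.0450), which held without mutant male 2 or mutant male 4 but ended without any 1 of the other 6 arrays (adjusted p up to 0.149).

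Of 12 genes of the granules and cytoskeleton 11 were tested, with a median genotype difference of -0.04. Coagulation factor V, F5, was at -0.50 (SE 0.15, adjusted p = 0.419) and thrombospondin 1, Thbs1, at 0.44 (SE 0.13, adjusted p = 0.421). F5 was lower in males, with log2 5.90 and 5.88 in mutant males and 6.26 and 6.65 in wildtype males, against 8.05 and 7.66 in mutant females and 8.18 and 8.42 in wildtype females. That difference was -1.90 (SE 0.15, adjusted p = 0.00175) and passed without any single array. The beta-1 tubulin Tubb1, a megakaryocyte gene singled out after its values were seen, was detected on all 8 arrays and differed by 0.06 between genotypes (SE 0.16, adjusted p = 0.972).

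The arrangement of Pf4 and Clec1b was found in 3 of these 28 genes, F2rl3, Tbxa2r and F13a1, against 2.49% of all probes. For 2 of them the difference lay mainly in males. F2rl3 was at -1.24 in males (SE 0.25) and 0.31 in females (SE 0.25), and Tbxa2r at -1.48 (SE 0.37) and 0.36 (SE 0.37). All 13 tested endothelial genes were also below 0 in males (median -1.05), but they were below 0 in females too (median -0.25). The part of endothelial RNA in these 2 genes was not tested. F13a1, the A chain of coagulation factor XIII, was chosen after its values were seen; platelets carry it and some tissue macrophages do too. Its log2 intensity was 7.27 and 8.85 in mutant females, 6.08 and 5.33 in mutant males, 5.29 and 5.48 in wildtype females, and 6.82 and 8.11 in wildtype males. It was high in mutant females and wildtype males, as Pf4 was. Its interaction was -4.44 (SE 0.84, unadjusted p = 0.00114, adjusted p = 0.594), from -1.76 in males and 2.67 in females.

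Of 9 megakaryocyte transcription factors 7 were tested and none passed (median -0.32); Gata1, which drives megakaryocyte and red cell genes, was detected on no array. Mef2c was at -0.69 (SE 0.14, adjusted p = 0.348) and Meis1 at -0.40 (SE 0.13, adjusted p = 0.441), both of which endothelial cells also express. Of the partners of the member proteins 6 of 9 were tested (median 0.19), with podoplanin, Pdpn, the CLEC-2 ligand, at 0.49 (SE 0.22, adjusted p = 0.597) and the integrin chain Itgav at 0.28 (SE 0.13, adjusted p = 0.626). Of 5 other CXC chemokines 2 were tested: Cxcl1 at 0.46 (SE 0.27, adjusted p = 0.736) and Cxcl2 at -0.08 (SE 0.38, adjusted p = 0.989). Cxcl2, a neutrophil attractant, had the arrangement of Pf4 too, at -1.27 in males and 1.11 in females, as 2.49% of all probes did. Its interaction was -2.38 (SE 0.77, limma adjusted p = 0.656). It was detected on only 1 of the 2 mutant males (log2 5.09 and 7.02, against 7.48 and 7.17 in wildtype males), so its male difference has no exact size.

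Markers of other cells were read beside these values, and their part in them was not tested. The 13 tested endothelial genes all lay below 0 between genotypes (median -0.64) and above 0 between the sexes (median 0.60), and 0 passed between genotypes. Pecam1 had log2 intensities of 10.63 and 10.70 in mutant females, 10.30 and 11.27 in mutant males, 10.94 and 10.99 in wildtype females, and 11.75 and 12.13 in wildtype males, so the wildtype males were highest in Pecam1 as in Pf4. In females the endothelial median between genotypes was -0.25, where Pf4 stood at 0.90. Summed linear intensities of the endothelial list were 53020 to 64260 in mutant females, 62580 to 69820 in wildtype females, 50040 to 91760 in mutant males and 118000 to 149700 in wildtype males. Those of the platelet members were 773.8 to 835.3 in mutant females, 559.4 to 602.4 in wildtype females, 648.2 to 720.7 in mutant males and 802.0 to 1024 in wildtype males. Pf4 weighs most in this sum, with a mean log2 of 8.31 against 6.92 for Itga2b, the next brightest member. With each member counted equally, the mean centred level was 0.26 and -0.04 in mutant females and -0.29 and -0.13 in wildtype females. It was 0.04 and -0.16 in mutant males and 0.05 and 0.27 in wildtype males. Among the named markers Tie1 was at -0.86 (SE 0.16, adjusted p = 0.330) and Ehd3 at -1.15 (SE 0.29, adjusted p = 0.383).

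Macrophages, which can express Pf4 in mouse tissues, were read from 10 tested markers of 11 listed, 7 of them above 0 (median 0.34). The median was 0.17 in males and 0.60 in females, and 0 passed. C1qa was at 0.51 (SE 0.16, adjusted p = 0.436). The mannose receptor Mrc1 was at 0.57 (SE 0.17, adjusted p = 0.421), with 0.02 in males and 1.12 in females. Summed linear intensities were 6666 to 7656 in mutant females, 4173 to 4601 in wildtype females, 5510 to 8767 in mutant males and 6511 to 8769 in wildtype males, so the genotypes did not overlap in females and overlapped in males; among single probes 32.8% did not overlap in females.

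Blood and tubule lists also had no gene that passed between genotypes. Neutrophil genes had a median of -0.31 over 5 of 9 (Retnlg -0.60, Camp 0.11), with Elane, Mpo and Ngp detected on no array, and erythroid genes one of -0.60 over 7 of 12 (Klf1 0.25, Slc4a1 0.23). Summed erythroid intensities ran from 9738 to 90790 in mutant females, 23680 to 24490 in wildtype females, 14990 to 42490 in mutant males and 56280 to 68650 in wildtype males. T and NK cell genes had a median of 0.08 over 8 of 10 (Ccl5 0.98, Prf1 -0.96) and B cell genes -0.14 over 2 of 7 (Cd79b -0.18, Cd22 -0.09), with Ms4a1 detected on no array. Proximal tubule genes had 0.21 over 9 of 10 (Slc13a3 0.40, Pck1 0.39), and between the sexes Slc22a6 was higher (1.23, SE 0.15, adjusted p = 0.00997) and Slc5a2 lower (-0.77, SE 0.15, adjusted p = 0.0459) in males. The first call ended without wildtype female 1 (adjusted p = 0.0547), and the second without any 1 of 7 arrays, holding only without mutant male 4 (0.0249).

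**Figure D3:**
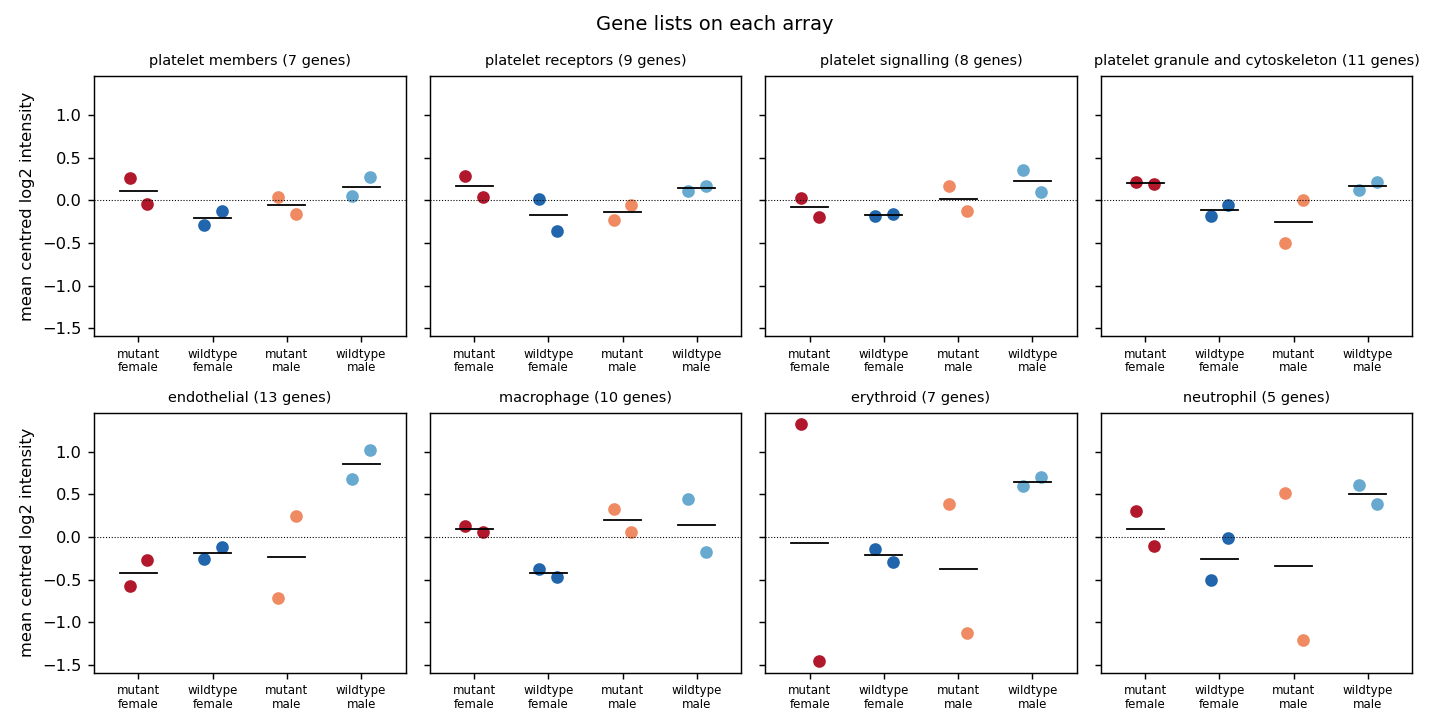
Mean log2 intensity of the tested genes of each list after centring each gene over the 8 arrays (vertical axis), by group (horizontal axis). Points are arrays and bars are means of 2 arrays. The platelet members range from -0.29 to 0.27, the endothelial list from -0.72 to 1.02 and the erythroid list from -1.45 to 1.32, and the 2 mutant female arrays lie at opposite ends of the erythroid list.

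The members did not share 1 order of arrays. Wildtype male 4 was highest for Pf4, Ppbp, Itga2b and Treml1, mutant female 1 for Clec1b and Itgb3, and wildtype male 2 for Gp9. Wildtype male 4 was at the same time the lowest array for Itgb3. The range over the 8 arrays was smallest for Gp9 (log2 0.66) and largest for Ppbp (1.73) among the 7 tested members. Their mean profile ran from -0.29 on wildtype female 1 to 0.27 on wildtype male 4. The named genes nearest to that mean profile over the 8 arrays, of 19104 probes compared, were D930020B18Rik, Noxo1, Fkbpl, Asns and Nxt1, with root mean square differences of 0.0449 to 0.0793, against a median of 0.294. None of these belonged to the platelet lists, which hold only 28 tested genes beyond the members, so their absence is uninformative.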

How the data were processed

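The deposited table held a linear intensity for 45281 probes on each of 8 arrays, and a detection p-value beside each, per the file headers. The authors' deposited processed values have a log2-like scale and a floor; how they were made was not stated in the sources used here, and they served as an alternative. RNA was extracted with a micro-scale column kit and labelled with biotin, per the labels' protocols. There were 0 columns without a sample. Precision is limited by the number of arrays.

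Background was corrected with the normexp model through detection p-values (offset 16), followed by quantile normalization and log2, in limma 3.58.1 (R 4.3.3). Figures used matplotlib 3.10.9 and pandas 2.3.3 under Python 3.11.15. Probes with detection p under 0.05 on at least 2 arrays were tested (23841 probes, 12476 named genes). Of 45281 probes, 34885 had 1 symbol, 18 several and 10378 none; 34807 were matched by Entrez identifier to the GRCm38.p6 table. Means of the 4 groups were fitted (lmFit, then eBayes; degrees of freedom 4 residual, 3.05 prior); two-sided p-values were adjusted by Benjamini-Hochberg over all tested probes. The fit was tested on simulated data.

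Same-numbered mutant and wildtype arrays deviated together from their group means (r = 0.100 in females, just over the limit of 0.1, and 0.269 in males); with 2 arrays a group each sex gives a single value. The labels speak of pairs but do not say what a number marks. The main fit did not use the numbers, so its standard errors and p-values are unpaired. A fit with the number as a block was run as an alternative.

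The members and the gene lists were chosen with earlier results of these data known, so no list has a p of its own. The tested probe with the highest mean stood for its gene. From each other list the text names genes with adjusted p under 0.05 in the genotype, sex or interaction contrast and the 2 with the largest genotype t; others are said to be chosen after their values were seen. Likeness was the root mean square difference of centred profiles, among probes with an SD at least 0.5 of the profile's. Alternatives were median scaling, the authors' values, offset 50, other detection filters, other sex and replicate terms, and leaving out each array.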

Additional observations from a re-analysis of the deposited data

How the results depend on the processing

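Under all alternatives run, 0 of 319 recomputed member differences passed an adjusted p of 0.05, and 15 had the other sign. The genotype count of 9 probes became 0 in the authors' processed values, 1 with no filter, 3 without a sex term, 0 with the replicate block, and 0 to 1 when single arrays were left out. The replicate block, which replaces the sex term and was run for the genotype comparison alone, changed no member's call. The sex calls of F2rl3, Tbxas1 and Slc5a2 ended with the number as a random block (adjusted p = 0.0590, 0.0577 and 0.0599, in that order) and with no filter (0.0709, 0.0716 and 0.0631). Those of F2rl3 (0.176) and Slc5a2 (0.0655) ended with an additive sex term, and that of F2rl3 in the authors' values (0.0557). The sex count of 730 became 1120 in the authors' processed values and 225 to 741 when single arrays were left out. The interaction count was 0 in each setting that gave one (1661 probes had an unadjusted p under 0.05 in limma). The median genotype difference of the members was 0.00 to 0.20. Treml1, at 0.00, became -0.02 with median scaling, 0 but on the negative side in the authors' values, -0.01 with offset 50 and -0.21 to 0.21 without single arrays. Leaving out single arrays also moved the genotype differences of Gp9 (-0.07 to 0.05) and Itga2b (-0.18 to 0.27), the sex difference of Itga2b (-0.43 to 0.03) and the interactions of Itga2b (-0.37 to 0.54), Itgb3 (-0.17 to 0.26) and Ppbp (-1.33 to 0.01) to the other sign. The Itga2b turns came without wildtype male 2, and that of Ppbp without mutant male 4; the causes were not tested. The Pf4 interaction was negative in 14 of 14 alternatives (-1.75 to -0.96, adjusted p 0.28 to 0.998), and so was that of Clec1b (-1.06 to -0.17). Itgb3 kept a positive genotype difference in 16 of 16 (0.07 to 0.51) and had no value under the strict filter. At a detection p under 0.01, Itga2b probe ILMN_2732623 and Itgb3 were each detected on 3 arrays, against 6. The interactions of F2rl3, Tbxa2r and F13a1 were negative in 14 of 14 (F13a1 -5.23 to -1.56), and F5 passed between the sexes in 15 of 15. Dim signal limits Clec1b, Itgb3, Gp9 and Treml1.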

Other observations

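Fcer1g, the signalling chain that platelets pair with glycoprotein VI and that macrophages and mast cells use with antibody receptors, was detected on 3 of 8 arrays, all female, and was chosen after its values were seen. Its log2 intensity was 10.37 and 8.75 in mutant females, 4.35 and 4.56 in mutant males, 9.09 and 4.37 in wildtype females, and 4.37 and 4.42 in wildtype males. The 2 wildtype females thus lay far apart, and the sex difference had an adjusted p of 0.0915 in limma.

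Taken alone, Pf4 had the nearest profile over the 8 arrays to Ppp1r13b, at a root mean square difference of 0.145, and Ppbp to Mdga2, at 0.258, against medians of 0.562 and 0.725 over all probes compared; these likenesses were computed after the member values were seen. The nearest 5 genes to Pf4 and the nearest 5 to Ppbp held no gene in common.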
